A study of Homo sapiens with 6 samples.

Results

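Of 58825 genes in an expression table of T24 cells, 9 make up the group described here: HLA-B, HLA-C, HLA-E and HLA-F, B2M, TAP1, TAP2, TAPBP and NLRC5. They were chosen by name, as rows of the table with these symbols, and encode MHC class I chains, factors that load them with peptide, and a regulator of their transcription. T24 is an established human cell line, grown from a carcinoma of the bladder. Of its libraries, 3 came from cells with a hairpin against DLGAP5 (shDLGAP5-1), which encodes a spindle protein of mitosis, and 3 from cells with a control hairpin (shNC-1), whose genotype the labels give as WT. All cells were T24 in serum-supplemented medium. The labels name 1 hairpin against DLGAP5, give no time after its delivery, and do not name separate cultures; the p-values below thus reflect no more than the spread between these 6 libraries, which may be technical. In bulk RNA, a change in the share of cells that express a gene and a change in RNA per cell cannot be told apart.

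MHC class I molecules show peptides from inside the cell to cytotoxic T cells. A heavy chain, encoded by an HLA class I gene, pairs with the light chain beta-2-microglobulin in the endoplasmic reticulum. The TAP1 and TAP2 proteins together pump peptides from the cytosol into that compartment, where tapasin, the product of TAPBP, bridges the transporter to empty heavy chains. NLRC5 is a transactivator that acts at class I promoters, and interferons are known to raise many genes of the pathway. Many carcinomas lower these genes, which reduces what T cells can see.

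Levels are in FPKM, fragments normalised to transcript length and library size, a scale on which genes can be compared. Totals ran from 431491 to 487559 FPKM in shDLGAP5-1 libraries and from 413001 to 435077 FPKM in shNC-1 libraries. Depth, estimated from the smallest steps in low values, was about 14000000, 14000000 and 18000000 fragments in shDLGAP5-1 replicates 1 to 3, and about 22000000, 28000000 and 24000000 in shNC-1 replicates 1 to 3. DLGAP5, the hairpin's target, stood at 5.03, 4.0 and 7.51 FPKM in shDLGAP5-1 libraries, against 32.98, 32.7 and 29.7 FPKM in shNC-1 libraries, and fell by 2.37 on the log2 scale used below (limma adjusted p = 0.000894). The line's keratins KRT7, KRT8 and KRT18 and vimentin were abundant, at 236.7 FPKM or more in every library. The epithelial adhesion genes EPCAM and CDH1 were near 0, at no more than 1.18 and 0.17 FPKM. KRT19 fell, with 10.56, 11.07 and 10.59 FPKM in shDLGAP5-1 libraries, against 17.75, 17.96 and 20.92 FPKM in shNC-1 libraries (log2 difference −0.76, limma adjusted p = 0.00438). KRT8 and KRT18 were also lower in every shDLGAP5-1 library, by 0.47 and 0.29, but did not pass. Of all genes tested, 9.52% fell and 18.3% were lower without overlap. Transcripts of white blood cells were most abundant in shDLGAP5-1 replicate 3, where 10 of 13 leukocyte markers reached 1 FPKM, against 1 to 3 of 13 in each of the other libraries. Their sum was 11.1 to 780.1 FPKM in shDLGAP5-1 and 8.41 to 32.8 FPKM in shNC-1. Without lysozyme (LYZ) it was 94.1 FPKM in shDLGAP5-1 replicate 3 and 7.67 to 11.7 FPKM in the other libraries. The T cell marker CD3E was listed at 0 in all 6. Of the 13 markers, only LAPTM5 and CD14 were higher in every shDLGAP5-1 library than in any control. The same held for 25.6% of all genes tested, so it is not particular to these markers. All the other leukocyte markers overlapped between groups. LAPTM5 stood at 2.018, 1.987 and 34.7 FPKM in shDLGAP5-1 libraries, against 0.415, 0.347 and 0.992 FPKM in shNC-1 libraries (log2 difference 2.14, limma adjusted p = 0.128). It was tested only because all shDLGAP5-1 libraries exceeded 1 FPKM. CD14 stood at 0.536, 0.468 and 0.482 FPKM in shDLGAP5-1 libraries, against 0.232, 0.128 and 0.132 FPKM in shNC-1 libraries, and was too low to be tested. Without shDLGAP5-1 replicate 3 the levels of LAPTM5 and CD14 still did not overlap between groups, but neither gene could then be tested. Their part in the results below was not tested. Counts and differences of the 9 genes and the lists below were therefore also computed without that library.

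Class I genes were mostly higher in shDLGAP5-1 cells, with TAP2 as the member that went down. Of the 9 genes 6 rose, HLA-B, HLA-C, HLA-E, HLA-F, TAP1 and TAPBP, 1 fell, TAP2, and B2M and NLRC5 did not pass. All 9 had at least 1 FPKM in all 6 libraries. The test was limma on log2(FPKM + 1) over 12714 genes, and a gene passed where its p, adjusted after Benjamini and Hochberg over all of them, was under 0.05. Differences below are on that scale, on which changes of low genes come out too small. Over all genes tested, 15.3% rose and 9.52% fell, 24.8% in all. The groups did not overlap for 7 of the 9 genes, 6 of them higher in shDLGAP5-1 and 1 lower; of all genes tested 43.9% did not overlap, 25.6% higher and 18.3% lower. The median log2 difference of the 9 was 1.01, against 0.03 over all genes tested. The balance of all calls depended on scaling, with 1944 higher and 1211 lower as deposited, but 1261 higher and 1379 lower with libraries scaled to the same total and 1374 higher and 1917 lower with median-ratio scaling. These scalings moved the median of all genes by −0.10 and −0.11 and changed the sign of none of the 9 genes.

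**Figure D1:**
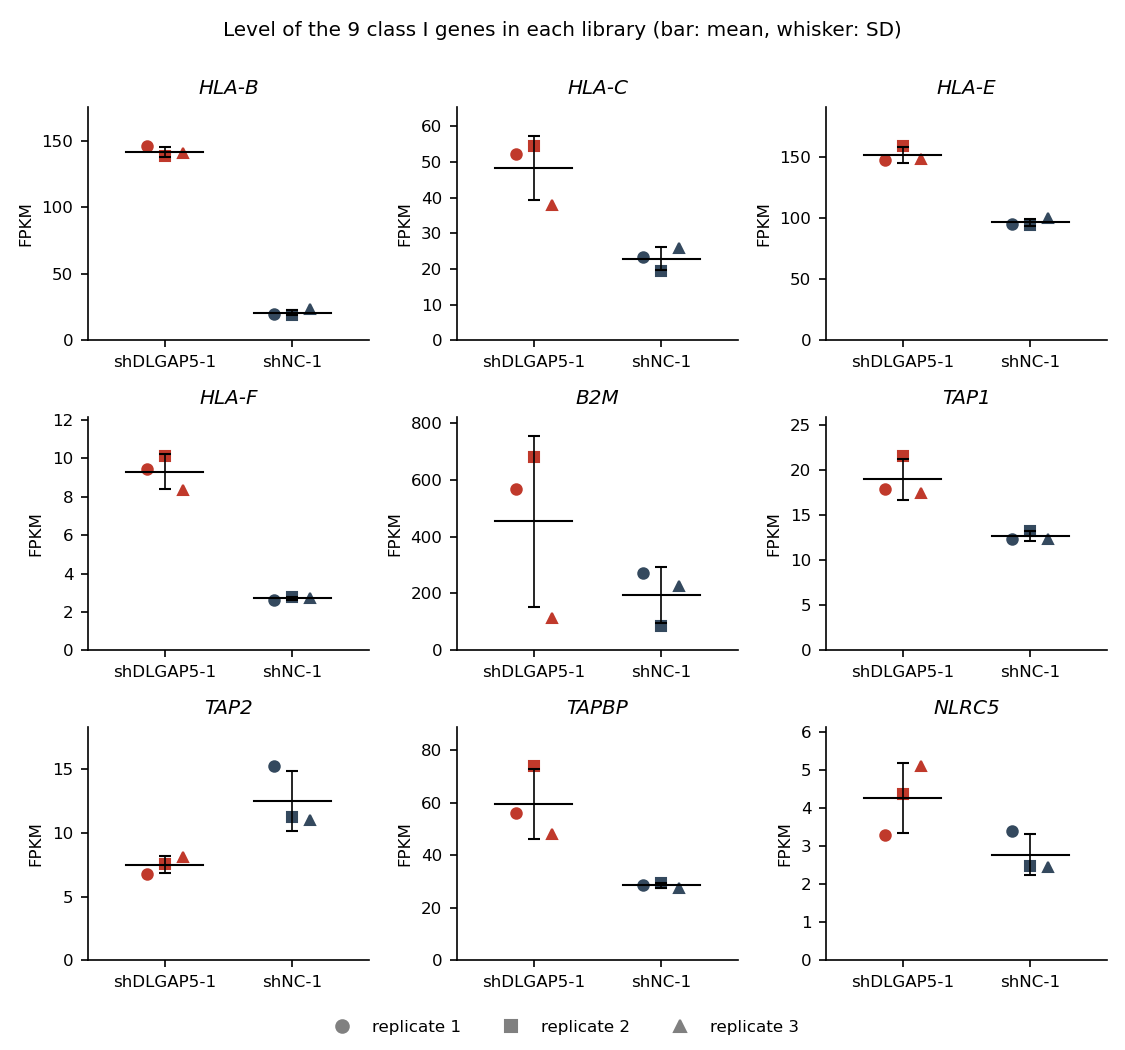
Level in FPKM (y axis, from 0) of each of the 9 class I genes in shDLGAP5-1 and shNC-1 libraries; markers give replicates 1 to 3, bars the mean and whiskers the SD. HLA-B lies at 138 to 146 FPKM in shDLGAP5-1 against 19.2 to 23.3 FPKM in shNC-1, TAP2 is the gene with every shDLGAP5-1 library lower, and B2M and NLRC5 overlap between groups.

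HLA-B, a classical heavy chain that presents peptides to cytotoxic T cells, showed the largest difference of the 9. It stood at 146.1, 138.4 and 140.4 FPKM in shDLGAP5-1 libraries, against 20.2, 19.2 and 23.3 FPKM in shNC-1 libraries. The lowest shDLGAP5-1 library was thus far above the highest control, and libraries within a group differed by at most 1.21 times. The means were 141.6 ± 3.99 and 20.9 ± 2.11 FPKM (SD, n = 3 each), a ratio of 6.78. The log2 difference was 2.71 (95% interval 2.46 to 2.96, limma adjusted p = 9.81e-05), the 7th largest rise of the 12714 genes. In fits with other settings or with 1 library left out, it lay between 2.55 and 2.78.

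HLA-C, the other classical heavy chain described here and a ligand of receptors on natural killer cells, rose less. It stood at 52.2, 54.5 and 38.1 FPKM in shDLGAP5-1 libraries, against 23.5, 19.5 and 25.8 FPKM in shNC-1 libraries. The library with white blood cell transcripts was the lowest of its group, and without it the log2 difference was 1.19, compared with 1.03 over all libraries (95% interval 0.63 to 1.43, limma adjusted p = 0.00707). HLA-F, a nonclassical chain with mostly intracellular expression, stood at 9.45, 10.1 and 8.36 FPKM in shDLGAP5-1 libraries and at 2.61, 2.80 and 2.71 FPKM in shNC-1 libraries. Its log2 difference of 1.47 (95% interval 1.2 to 1.75, adjusted p = 0.000771) was the second largest of the 9. HLA-E, a nonclassical chain that presents leader peptides of other class I chains to the NKG2A receptor, stood at 147.8, 159.4 and 148.3 FPKM in shDLGAP5-1 libraries, against 95.7, 94.3 and 100.1 FPKM in shNC-1 libraries. It rose by 0.65 on the log2 scale (95% interval 0.42 to 0.87, adjusted p = 0.00458), the smallest rise of the 4 heavy chains, with little spread in either group.

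The order of the heavy chains therefore differed between groups. In shDLGAP5-1 cells HLA-E and HLA-B were close, at means of 151.9 and 141.6 FPKM, with the lowest HLA-E library just above the highest HLA-B library. HLA-C at 48.3 FPKM and HLA-F at 9.31 FPKM followed. In shNC-1 cells HLA-E at 96.7 FPKM lay well above HLA-C at 22.9 and HLA-B at 20.9 FPKM, whose ranges overlapped, and HLA-F at 2.71 FPKM was the lowest. The 4 chains together summed to 351 ± 14.2 FPKM in shDLGAP5-1 and 143 ± 8.13 FPKM in shNC-1 (SD, n = 3 each), a ratio of 2.45. HLA-B made up 41.1%, 38.2% and 41.9% of that sum in shDLGAP5-1 libraries, against 14.2%, 14.2% and 15.3% in shNC-1 libraries. No scaling of a library can move such a share. The mean difference was 25.8 percentage points, and the exact two-sided permutation p was 0.1, the smallest that 3 against 3 libraries allow (0.15 when adjusted over the 3 ratios tested here).

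These genes are close relatives, so reads can be assigned to the wrong one. In the coordinates of the table, HLA-B spans part of HLA-C. Of all stretches of 50 bases in the longest coding transcript of HLA-B in GENCODE release 29, 21.0% also occur in transcripts of some other gene on either strand, but only 2.0% in HLA-C. For HLA-C the share in other genes was 6.71%, for HLA-E 5.76% and for HLA-F 41.7%, where antisense and overlapping entries count too. The alleles of T24 were not compared with the reference, and reads of an allele far from it can be lost. How much of the HLA-B difference such assignment could carry was not tested.

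The promoters of HLA-B and HLA-C are shown because these genes lie side by side and differ in the size of their rise. Both are RefSeq sequences in GRCh38.p14 on the minus strand, 200 bases up to the transcription start, chr6:31357180-31357379 for HLA-B and chr6:31272093-31272292 for HLA-C. Capitals mark matches, on either strand, to letters picked after the sequences were seen.
HLA-B: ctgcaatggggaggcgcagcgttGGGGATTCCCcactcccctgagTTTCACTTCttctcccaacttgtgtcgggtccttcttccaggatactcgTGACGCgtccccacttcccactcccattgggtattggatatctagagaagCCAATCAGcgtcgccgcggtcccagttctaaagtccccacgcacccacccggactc
HLA-C: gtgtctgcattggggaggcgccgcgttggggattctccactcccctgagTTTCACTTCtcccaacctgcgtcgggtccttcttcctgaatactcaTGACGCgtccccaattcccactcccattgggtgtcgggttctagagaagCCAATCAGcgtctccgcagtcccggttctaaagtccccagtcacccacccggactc
Reading from the left, the 10 capitals marked only in HLA-B are the core of enhancer A, an element known to bind NF-kB. They begin 177 bases upstream of the HLA-B start, and the same letters were in none of the other 6 member promoters searched. HLA-C reads ggggattctc at the same place, with a t for a c, and so is not marked. The letters searched are those that HLA-B holds, so the lack of other matches partly follows from that choice. Whether this letter bears on the size of either rise was not tested. The next match in each is a short form of the interferon-stimulated response element (ISRE), GAANNGAAA, which reads TTTCACTTC here. TGACGC is the core of site alpha, in the region where NLRC5 acts together with RFX and NF-Y proteins. CCAATCAG is an extended CCAAT box nearer the start. Among 35116 promoters of 300 bases in the reference table, 0.0769% held the enhancer A core, 7.66% the short ISRE form, 9.14% TGACGC and 3.97% CCAATCAG. A match describes the letters and does not show that a factor binds.

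B2M, which encodes the light chain of every class I molecule, was the most abundant of the 9 by mean and by far the most variable. It stood at 567.7, 680.8 and 112.8 FPKM in shDLGAP5-1 libraries, against 271.1, 84.4 and 227.9 FPKM in shNC-1 libraries. The groups overlapped, with shDLGAP5-1 replicate 3 under 2 of the 3 controls. Within groups the highest library exceeded the lowest by 6.03 times in shDLGAP5-1 and 3.21 times in shNC-1. The log2 difference was 1.02 with a 95% interval of −0.70 to 2.73 (limma adjusted p = 0.343), so no difference could be shown at this spread. Without shDLGAP5-1 replicate 3, which held the most leukocyte transcripts, it was 1.83 and passed (adjusted p = 0.042). In the other alternatives it ran from 0.50 to 1.34 and did not pass, with adjusted p between 0.314 and 0.683.

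The spread of B2M was set against that of 1266 genes with a mean of at least 50 FPKM, whose median SD within groups was 0.18 on the log2 scale. B2M had an SD of 1.19, larger than that of 99.4% of them. The 6 genes above it, named after their values were seen, were LYZ, the small RNA genes MIR1244-1 and SNORD3A, the rRNA pseudogene RNA5SP202, the read-through gene RPL36A-HNRNPH2 and AP002990.1. The other 8 class I genes had SDs of 0.05 (HLA-E) to 0.24 (HLA-C). None of the 50-base stretches of the longest coding B2M transcript occurs in another gene's transcripts. The ratio of B2M to the summed heavy chains was 1.6, 1.88 and 0.337 in shDLGAP5-1 libraries, against 1.91, 0.621 and 1.5 in shNC-1 libraries. The lowest values stood in shDLGAP5-1 replicate 3 and shNC-1 replicate 2, and the mean log2 difference of −0.273 had an exact two-sided permutation p of 0.8. That difference turned to 0.515 without shDLGAP5-1 replicate 3 and to 0.0554 without shNC-1 replicate 1.

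**Figure D2:**
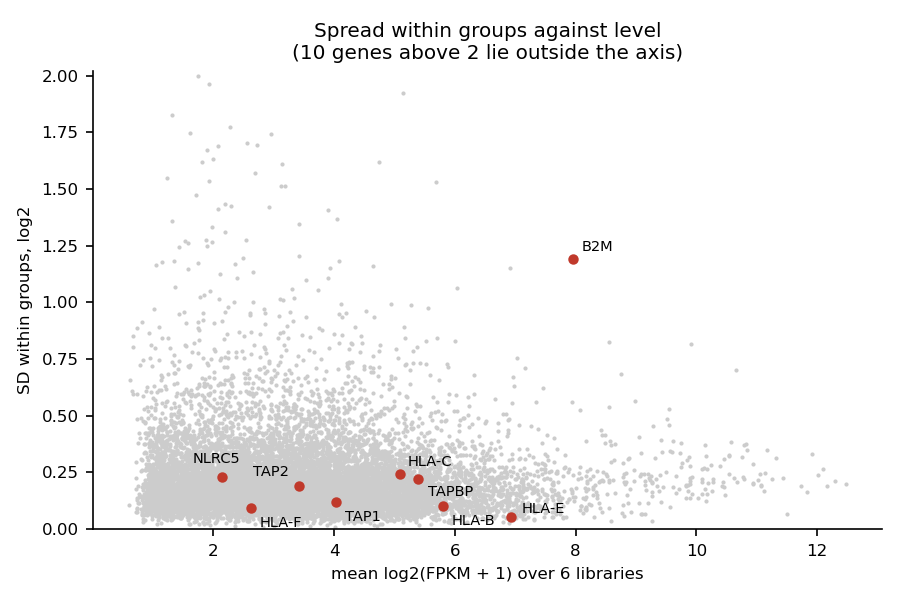
SD within groups on the log2 scale (y axis) against mean log2(FPKM + 1) over 6 libraries (x axis) for 12714 genes tested (grey points) and the 9 class I genes (red, named). B2M stands apart at an SD of 1.19, while the other 8 lie between 0.05 and 0.24.

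The B2M promoter, on the plus strand at chr15:44711317-44711516 in GRCh38.p14, holds the full ISRE core, GAAA, any 2 bases and GAAA again, and the extended CCAAT box in its reverse complement. It is shown to be set beside the heavy chain promoters.
B2M: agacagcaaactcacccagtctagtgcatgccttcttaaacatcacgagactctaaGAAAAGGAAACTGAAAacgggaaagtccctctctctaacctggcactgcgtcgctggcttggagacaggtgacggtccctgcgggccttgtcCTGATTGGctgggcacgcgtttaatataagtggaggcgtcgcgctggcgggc
The capitals hold 2 overlapping matches to the ISRE core, which 3.57% of the promoters in the reference table contain, and CTGATTGG 52 bases upstream of the start. Promoters of HLA-B, HLA-C and HLA-F have CCAATCAG, in the opposite orientation, 56, 56 and 57 bases upstream. Whether these boxes are the same element was not tested.

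The peptide transporter's subunits moved in opposite directions. TAP1 stood at 17.9, 21.5 and 17.4 FPKM in shDLGAP5-1 libraries, against 12.3, 13.2 and 12.3 FPKM in shNC-1 libraries. It rose by 0.54 on the log2 scale (95% interval 0.27 to 0.82, limma adjusted p = 0.0171). TAP2 stood at 6.81, 7.58 and 8.14 FPKM in shDLGAP5-1 libraries, against 15.3, 11.3 and 11.0 FPKM in shNC-1 libraries. It fell by 0.66 (95% interval −1.01 to −0.30, adjusted p = 0.0209). Neither gene's groups overlapped. In controls the pair stood at nearly the same level, 12.6 ± 0.540 FPKM for TAP1 and 12.5 ± 2.38 FPKM for TAP2 (SD, n = 3 each), whereas in shDLGAP5-1 cells TAP1 was the higher, at 18.9 ± 2.26 against 7.51 ± 0.669 FPKM.

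The ratio of TAP1 to TAP2 was 2.63, 2.84 and 2.14 in shDLGAP5-1 libraries, against 0.805, 1.17 and 1.12 in shNC-1 libraries. Every shDLGAP5-1 library lay above every control, with a mean log2 difference of 1.31 that stayed between 1.14 and 1.42 when any 1 library was left out. The exact two-sided permutation p was 0.1, the smallest possible, and 0.15 when adjusted over the 3 ratios. Each subunit's own call was fragile. That of TAP1 was lost without shDLGAP5-1 replicate 2 or any 1 control, with adjusted p of at most 0.0678. That of TAP2 was lost without shDLGAP5-1 replicate 1 or 2 or shNC-1 replicate 1 or 2, with adjusted p of at most 0.0647; without shNC-1 replicate 1, its highest library, the difference was −0.52.

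**Figure D3:**
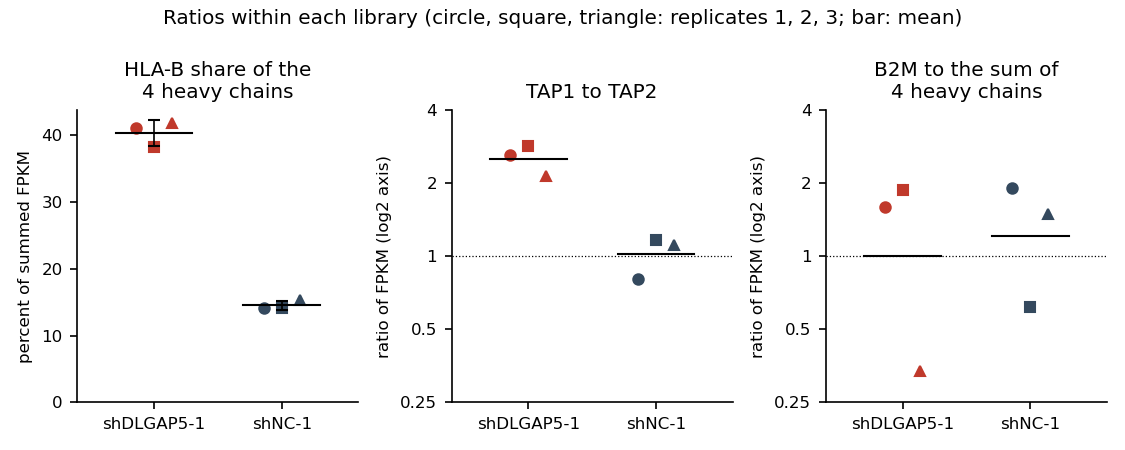
Ratios of FPKM within each library (y axes; percent in the left panel, log2 axes in the others) in shDLGAP5-1 and shNC-1, with circles, squares and triangles for replicates 1, 2 and 3, bars for means, and whiskers for the SD in the left panel. The HLA-B share and the TAP1 to TAP2 ratio do not overlap between groups, whereas B2M relative to the heavy chains does, with values from 0.337 to 1.91.

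TAP1 and TAP2 are neighbours within the MHC on chromosome 6, so the opposite directions fall within a short stretch. In GRCh38 coordinates TAP2 runs from 32821833 to 32838770 and TAP1 from 32845209 to 32853978, both on the minus strand, with PSMB8 between them. PSMB9 lies on the plus strand from 32844136 to 32859851 and overlaps TAP1. PSMB8 and PSMB9 encode subunits of the immunoproteasome, which makes peptides suited to class I. PSMB9 stood at 45.2, 41.3 and 33.0 FPKM in shDLGAP5-1 libraries, against 14.3, 16.7 and 18.3 FPKM in shNC-1 libraries (log2 difference 1.22, limma adjusted p = 0.00271). Strand is not stated for these counts, so reads of TAP1 and PSMB9 may be shared where they overlap. For TAP2, 35.8% of the 50-base stretches of its longest coding transcript occur in another gene's transcripts, an overlapping entry included.

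The upstream sequences of TAP1 and TAP2 are shown because both hold the ISRE core although the genes moved in opposite directions. They lie at chr6:32853705-32853904 and chr6:32838740-32838939 in GRCh38.p14, on the minus strand, and end at the base before the RefSeq start; for TAP1 the more upstream of its entries was taken.
TAP1: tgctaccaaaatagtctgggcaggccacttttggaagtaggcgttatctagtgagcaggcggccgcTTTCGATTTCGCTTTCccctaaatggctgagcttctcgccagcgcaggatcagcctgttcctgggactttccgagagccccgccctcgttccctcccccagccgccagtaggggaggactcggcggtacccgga
TAP2: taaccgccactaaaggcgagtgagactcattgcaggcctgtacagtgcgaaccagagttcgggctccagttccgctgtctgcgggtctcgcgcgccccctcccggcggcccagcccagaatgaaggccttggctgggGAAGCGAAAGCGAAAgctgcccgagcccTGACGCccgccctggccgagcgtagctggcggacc
In TAP1 the capitals hold 2 overlapping matches to the ISRE core in reverse complement, the first 134 bases upstream. In TAP2 they hold 1 match to the core, 58 bases upstream, which overlaps a match to the short form, and TGACGC 35 bases upstream. Of 7 members with a promoter in the reference table, B2M, HLA-F, TAP1, TAP2 and TAPBP held the ISRE core and HLA-B and HLA-C the short form.

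TAPBP, which encodes tapasin, rose. It stood at 56.2, 74.0 and 48.1 FPKM in shDLGAP5-1 libraries, against 28.7, 29.5 and 27.5 FPKM in shNC-1 libraries. The controls lay within 1.07 times of each other and the shDLGAP5-1 libraries within 1.54 times, with no overlap between groups. The log2 difference was 1.01 (95% interval 0.63 to 1.39, limma adjusted p = 0.0062), and it passed in each alternative, at 0.84 to 1.15. NLRC5, the transactivator of class I promoters, was low in all libraries. It stood at 3.29, 4.38 and 5.11 FPKM in shDLGAP5-1 libraries, against 3.40, 2.49 and 2.47 FPKM in shNC-1 libraries. The groups overlapped, and the log2 difference of 0.47 (95% interval 0.06 to 0.88) did not pass (adjusted p = 0.0895). It passed without shDLGAP5-1 replicate 1, at 0.61 (adjusted p = 0.0452), and after removal of a length trend, at 0.49 (adjusted p = 0.0223); over all alternatives adjusted p ran from 0.0223 to 0.238.

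**Figure D4:**
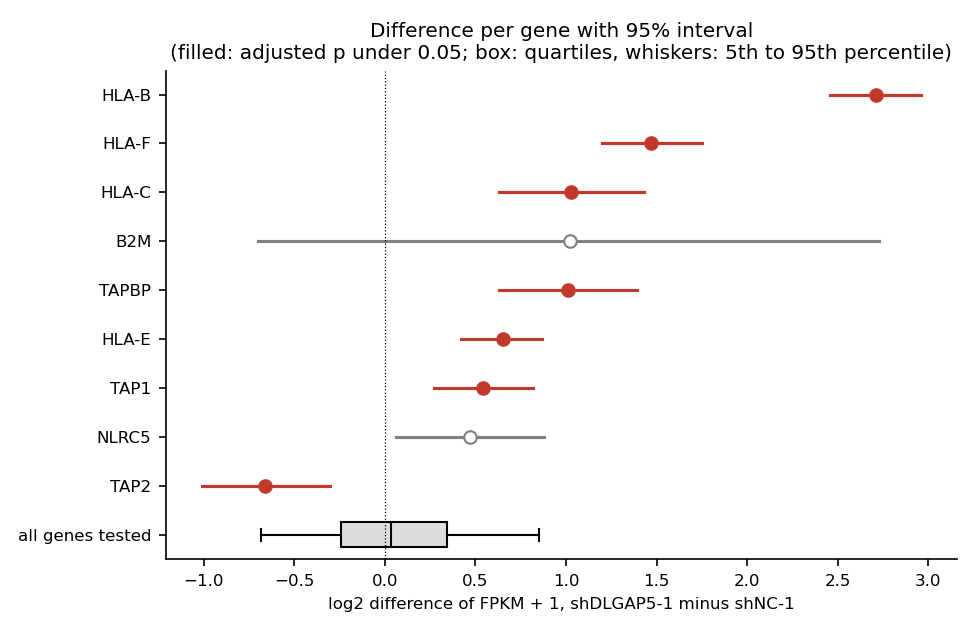
Log2 difference of FPKM + 1, shDLGAP5-1 minus shNC-1 (x axis), with the 95% interval for each of the 9 class I genes; filled points passed an adjusted p of 0.05, and the box below shows the quartiles and the 5th to 95th percentile of all 12714 genes tested. HLA-B lies farthest right at 2.71, TAP2 lies left of 0 at −0.66, and the interval of B2M is the widest.

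With shDLGAP5-1 replicate 3 left out, the differences of the genes that had passed were no smaller. Then 7 of the 9 genes rose, B2M being added, and 1 fell. Of all 12274 genes tested in that fit, 1489 rose and 1317 fell, the background also for the list counts below without this library. HLA-B then had a log2 difference of 2.71, HLA-F 1.54, HLA-E 0.66, TAPBP 1.15, TAP1 0.60 and TAP2 −0.71, and NLRC5, at 0.35, did not pass. HLA-C, HLA-F, B2M, TAP1 and TAPBP had their lowest shDLGAP5-1 level in that library, and NLRC5 and TAP2 their highest.

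Genes that supply and trim peptides were next in the pathway. Of 15 tested genes of peptide supply and loading, 5 rose and 1 fell, against 15.3% and 9.52% of all genes tested. Their median log2 difference was 0.22, and the counts were also 5 and 1 without shDLGAP5-1 replicate 3. PSME1, a subunit of the proteasome activator PA28, stood at 208.5 ± 30.1 FPKM in shDLGAP5-1 and 94.5 ± 10.0 FPKM in shNC-1 (SD, n = 3 each), a log2 difference of 1.13 (limma adjusted p = 0.00287). Its partner PSME2 had 108.7 ± 22.6 and 92.8 ± 5.94 FPKM and did not pass (0.21, adjusted p = 0.361). PSMB10, the third subunit of the immunoproteasome, rose by 1.01, PSMB8 by 0.94 and TAPBPL, a tapasin relative that edits peptides, by 1.15. The PSMB8 call was lost without shDLGAP5-1 replicate 1 or 2 or shNC-1 replicate 1 or 2, with adjusted p of at most 0.0902, and with median-ratio scaling (0.0529). CANX, calnexin, a chaperone of newly made heavy chains, fell by 0.52, with 114.3 ± 13.9 FPKM in shDLGAP5-1 and 164.0 ± 12.6 FPKM in shNC-1; the call was lost without shDLGAP5-1 replicate 2 or shNC-1 replicate 1 or 2 (adjusted p of at most 0.0974). The trimming enzymes ERAP1 and ERAP2 had log2 differences of 0.22 and 0.36 and did not pass.

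Factors that bind class I promoters were measured at moderate levels. Of 16 tested, 5 rose and 0 fell, against 15.3% and 9.52% of all genes tested, with a median log2 difference of 0.15. Those that rose were interferon factors and 1 RFX subunit: IRF1 by 0.84, IRF9 by 0.85, IRF2 by 0.63, STAT2 by 0.57 and RFXAP by 0.51. IRF1, an activator of class I genes, stood at 21.9 ± 2.61 FPKM in shDLGAP5-1 and 11.8 ± 1.74 FPKM in shNC-1 (SD, n = 3 each; limma adjusted p = 0.00764). RELA, the NF-kB subunit, had a log2 difference of 0.04 and did not pass. Without shDLGAP5-1 replicate 3, 3 rose, IRF1, IRF2 and RFXAP. The STAT2 call (adjusted p = 0.0321) was lost in each fit without 1 library except that without shDLGAP5-1 replicate 2, and under same-total and median-ratio scaling, with adjusted p of at most 0.11. The RFXAP call was lost without any 1 of the controls and with libraries scaled to the same total (adjusted p of at most 0.0674), that of IRF2 without shNC-1 replicate 2 (0.0508), and that of IRF9 without shDLGAP5-1 replicate 1 or 3 or shNC-1 replicate 2 (at most 0.0587).

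Class I-like genes moved both ways. Of 14, 8 passed the filter on low values, with a median log2 difference of −0.03. Of these, 1 rose and 3 fell (1 and 2 without shDLGAP5-1 replicate 3), against 15.3% and 9.52% of all genes tested. The falls were in ligands of the NKG2D receptor of natural killer cells. MICA stood at 5.77 ± 0.672 FPKM in shDLGAP5-1 and 9.62 ± 0.360 FPKM in shNC-1 (SD, n = 3 each), ULBP3 at 2.30 ± 0.235 and 4.37 ± 0.295 FPKM, and ULBP2 at 2.64 ± 0.410 and 4.45 ± 0.572 FPKM. Their log2 differences were −0.65, −0.70 and −0.58 (limma adjusted p = 0.00933 for MICA, 0.00724 for ULBP3). The ULBP2 call was lost without shDLGAP5-1 replicate 2 or 3 or shNC-1 replicate 2 or 3 (adjusted p of at most 0.0896). MICB, another such ligand, had 8.29 ± 0.796 and 8.17 ± 0.832 FPKM and did not pass. FCGRT, the heavy chain of the neonatal Fc receptor, which also pairs with beta-2-microglobulin, rose by 1.05. HLA-G, a nonclassical chain of the placenta, was at most 0.04 FPKM.

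In the class II pathway, which presents peptides from endosomes, most chains were near 0. Of 14 genes 6 were tested, with a median log2 difference of 0.48. Of these, 3 rose and 1 fell (2 and 0 without shDLGAP5-1 replicate 3), against 15.3% and 9.52% of all genes tested. CD74, the invariant chain, stood at 10.6, 11.2 and 14.8 FPKM in shDLGAP5-1 libraries, against 3.00, 2.76 and 2.51 FPKM in shNC-1 libraries (log2 difference 1.80, limma adjusted p = 0.000912). It passed also without shDLGAP5-1 replicate 3, its highest library. IFI30, a lysosomal thiol reductase, rose by 0.81. HLA-DMA, a chain of the peptide editor HLA-DM, rose by 0.75, but was tested only because all shDLGAP5-1 libraries exceeded 1 FPKM, and lost its call without shNC-1 replicate 1 or 2 (adjusted p of at most 0.0629). HLA-DPA1 fell by 0.46, a call lost in each fit without 1 library (adjusted p 0.0603 to 0.158). The class II transactivator CIITA was at 0.14 FPKM or less.

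Among genes of class I surface turnover 9 of 11 were tested, with a median log2 difference of −0.02. Of these, 1 rose and 1 fell, also without shDLGAP5-1 replicate 3, near the 15.3% and 9.52% of all genes tested. MARCHF4, a membrane ubiquitin ligase that can remove class I molecules from the surface, stood at 2.27, 3.91 and 3.56 FPKM in shDLGAP5-1 libraries, against 9.43, 8.86 and 8.32 FPKM in shNC-1 libraries. Its log2 difference was −1.24 (limma adjusted p = 0.00392), with no overlap between groups. Its relative MARCHF9 rose by 0.50 (adjusted p = 0.049), a call lost in all fits without 1 library except that without shDLGAP5-1 replicate 3 and in each other scaling (adjusted p of at most 0.166). SUSD6 and MARCHF8, which can act on class I or other surface proteins, had log2 differences of 0.38 and −0.37 and did not pass.

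**Figure D5:**
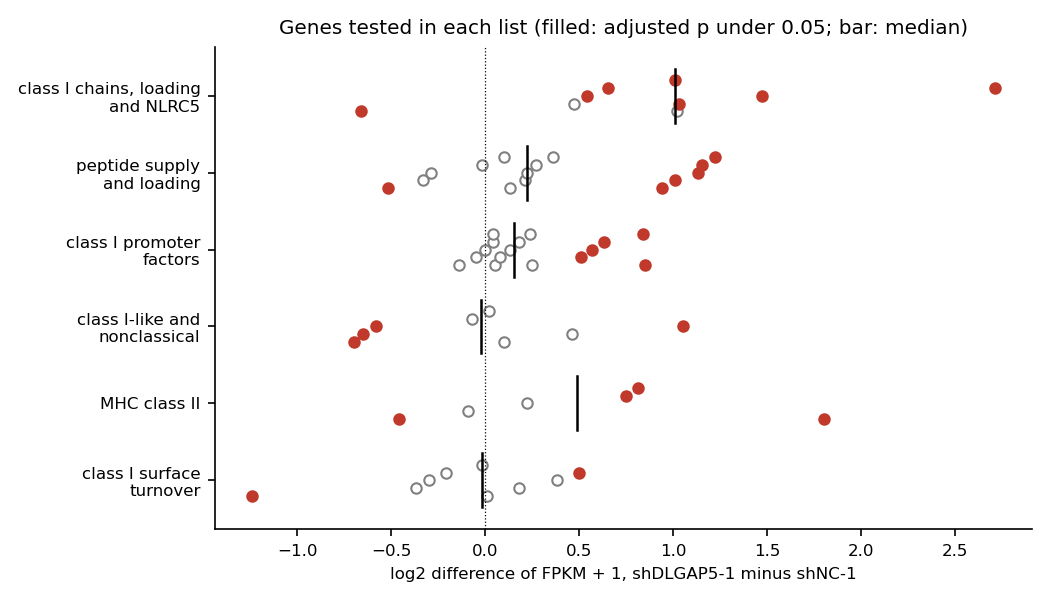
Log2 difference of FPKM + 1, shDLGAP5-1 minus shNC-1 (x axis), for each gene tested in the class I group and in 5 lists of related genes (rows); filled points passed an adjusted p of 0.05 and bars mark medians. The class I group has a median of 1.01, whereas the lists lie between −0.03 and 0.48.

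The genes nearest to HLA-B in pattern were found by the Euclidean distance of log2(FPKM + 1) over the 6 libraries, centred on each gene's mean. They were CFB, complement factor B (distance 0.337), TXNIP, an inhibitor of thioredoxin (0.458), ASS1, an enzyme of arginine synthesis (0.468), OASL, a relative of the oligoadenylate synthetases (0.536), and RARRES3, a phospholipase (0.583). In that order their rises ranked 4th, 9th, 5th, 11th and 3rd of all genes tested. The distance thus mostly reflects a group difference of similar size. CFB stood at 29.3, 32.7 and 24.6 FPKM in shDLGAP5-1 libraries, against 3.00, 3.29 and 3.64 FPKM in shNC-1 libraries. It lies on chromosome 6 as HLA-B does, and the other 4 on chromosomes 1, 9, 12 and 11.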

How the data were processed

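RNA sequencing of T24 cells gave 3 shDLGAP5-1 and 3 shNC-1 libraries, grouped by their titles. The shNC-1 columns carry NC and a number. The other 3 columns carry a construct number and were given to shDLGAP5-1 as the only other group; replicate numbers are those of the column names. The authors deposited 1 table of FPKM for 58825 genes, with Ensembl identifiers and GRCh38 coordinates. The unit was read from the values, which are not whole and step inversely with gene length. Which aligner and quantifier were run, and whether strand was used, is not given in the sources used here. FPKM depend on each library's total and on the transcripts assumed, and no counts could be recovered, so depths are approximate.

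The test was limma 3.58.1 in R 4.3.3 on log2(FPKM + 1), with trended variance and group as the only term, over the 12714 genes that reached 1 FPKM in 3 or more libraries; it was tested on simulated data. The alternatives were another pseudocount, other filters and scalings, a length correction, a replicate block, a robust prior and leaving out each library. Ratios were tested by exact permutation (scipy 1.17.1). The 9 genes, the 5 lists and the tests were chosen with earlier results of these data known; motifs were chosen after the sequences were seen. Besides the 9 genes, DLGAP5, the 4 genes of each list with the smallest p and the 5 nearest to HLA-B were named by rule. PSMB8, PSME2, CANX, ERAP1, ERAP2, STAT2, RELA, MICB, HLA-G, CIITA, LAPTM5 and CD14 were named after their values were seen. Symbols of 4 MARCHF genes were matched by identifier. Promoters and 50-base comparisons use RefSeq and GENCODE release 29.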

Additional observations from a re-analysis of the deposited data

How the results depend on the processing

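HLA-B, HLA-C, HLA-E, HLA-F and TAPBP rose in all 16 alternatives, and none of the 9 genes changed sign in any; NLRC5 had 15, since it was not tested with a filter of 5 FPKM. The count of class I genes that rose, 6, was between 5 and 7 throughout. The count that fell, 1 (TAP2), was 0 with no filter and 0 with the replicate block, and ran from 0 to 1 when 1 library was left out. The TAP1 call was lost with libraries scaled to the same total (adjusted p = 0.0581) and with the replicate block (0.059). The TAP2 call was lost with no filter (0.0571) and with the block (0.0709), but held with the block after removal of the length trend (0.033). The B2M to heavy chain difference, −0.273, ran from −0.755 to 0.515 when 1 library was left out, with 0.0554 without shNC-1 replicate 1. With no filter, calls were also lost for ULBP2 (0.072), IRF9 (0.0698), STAT2 (0.0783), PSMB8 (0.0945), CANX (0.064), HLA-DMA (0.0632), HLA-DPA1 (0.108) and MARCHF9 (0.113). CANX lost its call with quantile normalization (0.0651), and HLA-DPA1 with the length trend removed (0.0539). Of the counts of the 5 lists under the alternatives, 39 of 160 moved by over 1.5 times.

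Replicate numbers did not pair the samples: deviations of same-numbered libraries correlated at −0.155, 0.021 and −0.157, and no library correlated best with its own number. The block also ended the calls of ULBP2 (0.0858), CANX (0.0905), IRF2 (0.0534), IRF9 (0.0542), RFXAP (0.0787), STAT2 (0.0933), HLA-DPA1 (0.134) and MARCHF9 (0.117). With the block and the length trend removed, adjusted p was 0.0836 for IRF9, 0.0554 for IRF2, 0.071 for RFXAP, 0.0941 for STAT2, 0.117 for HLA-DPA1 and 0.12 for MARCHF9. With the replicate block, 951 genes rose and 513 fell, against 1944 and 1211 without it. Other counts that moved by over 1.5 times were 769 falls with no filter, 1168 rises with a filter of 5 FPKM, 1261 rises with the same total, 1917 falls with median-ratio scaling, 1890 falls with the length trend removed and 1171 rises with the block and the length trend removed. Without 1 library, rises ran from 879 to 1489 and falls from 447 to 1317. Depths are approximate, so counting error per gene was not computed.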
